A study of Homo sapiens with 160 samples.

Results

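Mometasone furoate, an inhaled glucocorticoid, was added to the muscarinic receptor agonist carbachol for 18 h in BEAS-2B cells, and the transcriptome was compared with that of cells given carbachol alone for 18 h. The comparison rests on 9 of the 160 RNA-seq samples of the series: the 4 libraries labelled as replicates 2 to 5 of mometasone with carbachol and the 5 libraries labelled as replicates 1 to 5 of carbachol, chosen by their treatment and time labels. Replicate 1 of the combination has no column headed 18 h and was not analysed here. BEAS-2B is an established line of human airway epithelial cells. The cells are labelled wild type, were grown to confluence in medium with serum and stood overnight without serum before treatment. The labels of single treatments give 100 nM for mometasone, 10 µM for carbachol and 100 nM for indacaterol, a long-acting bronchodilator of the beta-agonist class. Those of the combinations, including mometasone with carbachol, give no doses of their own. The whole series crossed 8 treatments with 4 times, 1, 2, 6 and 18 h, in 5 replicates. The groups set beside the comparison were mometasone alone (3 libraries), vehicle (4), mometasone with indacaterol (4) and indacaterol (5) at 18 h, and mometasone with carbachol and carbachol alone at 1, 2 and 6 h (5 libraries each). Since all are cultures of a single line, the results describe that line only. The labels do not say whether replicates were separate cultures, so p-values measure the spread between libraries, which may be technical. In the limma fit that spread was pooled over all 32 groups of the series, not taken from the 9 libraries alone.

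Glucocorticoids bind the glucocorticoid receptor, a transcription factor held in the cytosol by chaperones of the HSP90 machinery. The receptor then enters the nucleus, where it activates genes near its binding sites and lowers the output of inflammatory genes, in part through the factors AP-1 and NF-kB. In airway epithelium these actions underlie the use of inhaled steroids in asthma. Carbachol acts on muscarinic receptors, which in airway cells signal mainly through Gq proteins, phospholipase C and calcium.

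The deposited table gives a normalised value per gene and library, not a read count, so depth is unknown and precision was judged from the spread between libraries. Values were taken as log2(value + 1), which understates changes of low genes, and a log2 change is a difference of group means on that scale, given with its standard error. Tests in limma covered the genes that reached 1 in 4 or more of these 9 libraries, and a gene was called at a Benjamini-Hochberg adjusted p under 0.05. A gene below 1 throughout 1 group passed only through the other group. The shares called in the gene lists below therefore include genes that their own difference helped to select. The column sums of the 9 libraries ran from 885093 to 1106063, and the share of mitochondrially encoded genes from 9.21% to 13.1%. For neither measure was a difference between the groups detected in an exact two-sided permutation test (p = 0.70 and p = 0.43, smallest possible p 0.016). Replicate 5 of both groups had the highest column sums and stood apart from replicates 2 to 4: its deviations from the group means across genes correlated at 0.87 between the groups and at -0.67 to -0.43 with those of replicates 2 to 4 of the other group. Of the epithelial markers, KRT8, KRT18, CDH1 and KRT7 passed the filter, while KRT19, EPCAM, CLDN4 and ELF3 were low and ESRP1 was listed at 0 in all 9 libraries. The mesenchymal marker VIM was at 1197 to 1641, endothelial and secretory markers were all below 1, and of the immune markers CD68 was at 10.9 to 23.2 and PTPRC at 0.66 to 2.30, with MS4A1 listed at 0. In bulk RNA, fewer cells of a type and less RNA per cell cannot be told apart.

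Adding mometasone changed 1486 of 13009 tested genes (11.4%). Among them 669 rose (5.14% of the tested genes) and 817 fell (6.28%), and 206 rises and 225 falls were at least 2-fold. In all 4 same-numbered pairs the direction was the same for 1471 of the 1486. The libraries of the groups did not overlap for 1129 of the 1486, and for 1398 (10.7%) of all tested genes. The median change over all tested genes was 0.05. Without replicate 5, 706 genes rose and 827 fell, and without replicate 2, 412 rose and 543 fell. Same-numbered replicates deviated together, though unlike-numbered ones among replicates 2 to 4 did so too. With the replicate number as a block 1628 of the 13009 genes rose and 1745 fell, including 1485 of the 1486. Block counts of the gene lists and groups below stand beside these larger shares.

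**Figure D1:**
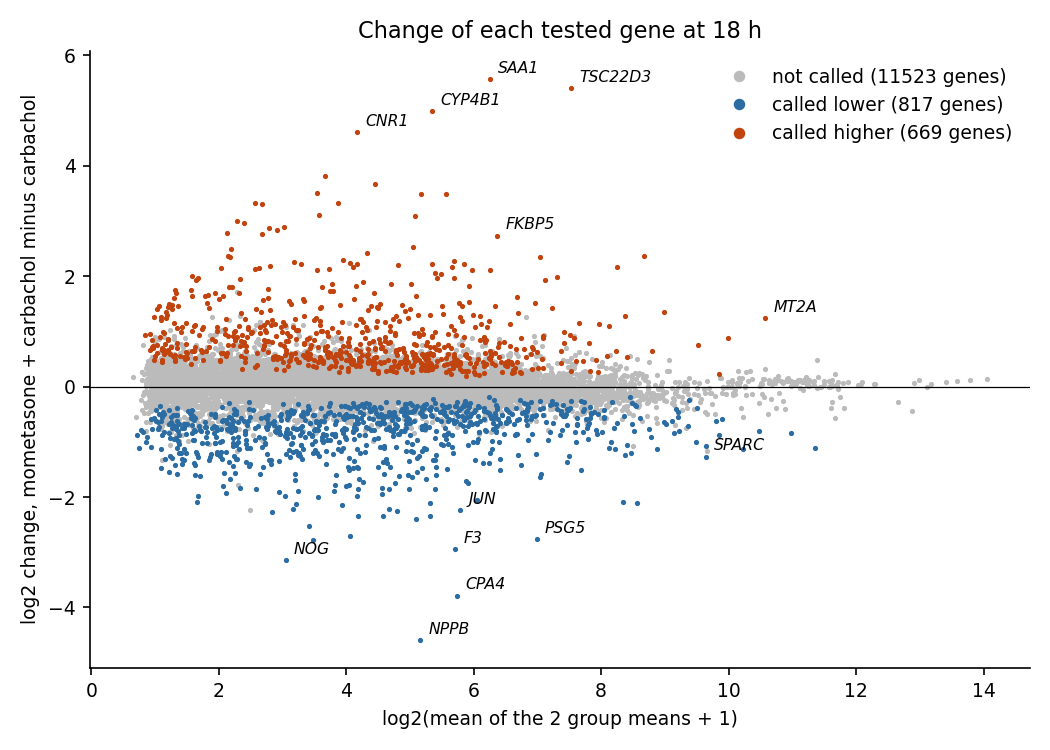
Log2 change of each tested gene (mometasone with carbachol minus carbachol, 18 h) against its mean level on the log2(value + 1) scale. The 669 genes called higher are in red, the 817 called lower in blue and the genes not called in grey; SAA1 and TSC22D3 lie at the top and NPPB and CPA4 at the bottom.

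The largest rises were in SAA1, TSC22D3 and CYP4B1. SAA1 (chr11:18266174-18269977 on GRCh38), which encodes the acute phase protein serum amyloid A, was at 138, 105, 127 and 224 in the 4 libraries with mometasone and at 2.52, 2.10, 0.79, 1.73 and 3.60 in the 5 with carbachol alone. Its log2 change was 5.58 ± 0.41 (adjusted p = 7.2e-24, limma). Every library with mometasone lay far above every library without it, with replicate 5 the highest of both groups. TSC22D3 (chrX:107713221-107777342), which encodes the glucocorticoid-induced leucine zipper protein GILZ, was at 396, 332, 391 and 320.4 with mometasone and at 5.45, 9.24, 8.73, 7.79 and 6.83 without. It rose by 5.40 ± 0.24 on the log2 scale, 42.3-fold, with a narrow spread in both groups. CYP4B1 (chr1:46757838-46819413), a cytochrome P450, was at 66.2, 105, 74.4 and 64.3 with mometasone against 1.76, 1.31, 1.81, 1.26 and 1.10, a change of 4.99 ± 0.26. Reads of SAA1 may be shared with its near-identical neighbour SAA2, which rose too (6.43 ± 3.18 against 0.398 ± 0.480, log2 change 2.37 ± 0.25), so the split between these genes is uncertain.

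The next largest rises joined receptors, transporters and enzymes. CNR1, a cannabinoid receptor, was at 35.8, 45.2, 38.5 and 15.5 with mometasone and at no more than 0.510 without (log2 change 4.62 ± 0.25). SCNN1A, the alpha subunit of the epithelial sodium channel, was at 25.7, 40.6, 19.1 and 17.6 against 2.29, 1.29, 1.33, 2.39 and 0.77 (log2 change 3.32 ± 0.29). ABCA8, a lipid transporter of the ABC family, rose from 6.62 ± 1.596 (SD, n = 5) to 85.7 ± 25.6 (SD, n = 4). Enzyme genes in this group were AOX1, an aldehyde oxidase, PRODH, which starts proline breakdown, MAOA, which oxidises amines, and METTL7A, a methyltransferase-like protein, with log2 changes of 3.48, 3.11, 3.10 and 3.68. AOX1 showed replicate 5 apart from the rest, at 28.8 with mometasone where the other 3 libraries were at 74.1 to 81.0, yet still above all carbachol libraries. The remaining named rises were MARCHF10 (3.82), a RING finger protein, RGCC (3.51), a regulator of the cell cycle, TSPAN8 (3.33), a tetraspanin, and ZBTB16 (3.31), a zinc finger transcription factor. IGHV3-74, an immunoglobulin heavy chain variable segment on chromosome 14, was listed at 0 in all 5 carbachol libraries and at 4.44, 13.8, 8.26 and 4.54 with mometasone. Its reads may be shared with near-identical segments.

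Among the falls, NPPB (chr1:11857464-11858931), which encodes the precursor of B-type natriuretic peptide, stood first. It was at 2.63, 1.08, 1.26 and 2.41 with mometasone and at 41.1, 60.7, 86.7, 68.9 and 79.5 with carbachol alone, a log2 change of -4.59 ± 0.27 (adjusted p = 3.2e-31, limma). The lowest carbachol library was more than 10 times the highest mometasone library. CPA4 (chr7:130293134-130324180), a secreted carboxypeptidase, was at 6.94, 5.96, 6.86 and 4.81 against 119.7, 75.0, 131, 82.1 and 87.3 and changed by -3.78 ± 0.24. F3 (chr1:94529225-94541800), tissue factor, which starts blood coagulation, was at 11.7, 10.7, 11.6 and 7.34 against 79.6, 83.9, 166, 89.1 and 43.5 and changed by -2.94 ± 0.32. The spread of F3 was wide in carbachol, with replicate 3 the highest and replicate 5 the lowest, but the groups stayed apart. NOG, which encodes the BMP antagonist noggin, fell from 13.9 ± 5.39 to 0.635 ± 0.330 (log2 change -3.14 ± 0.28). Other named falls were CPA3 (-2.78), a carboxypeptidase known from mast cells, EVA1A (-2.35) and BHLHE40 (-2.35), a transcriptional repressor tied to the clock.

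**Figure D2:**
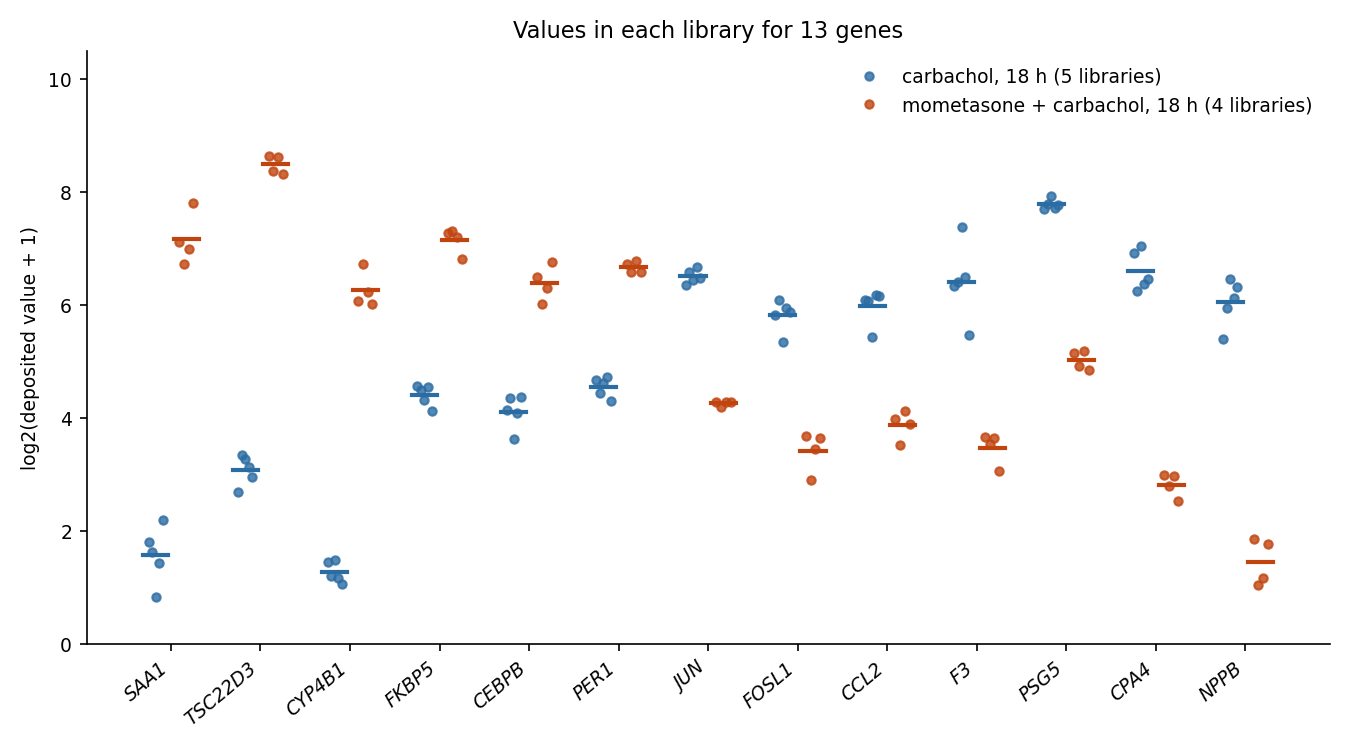
Level of 13 genes on the log2(value + 1) scale in each library; points are libraries (blue, 5 of carbachol; red, 4 of mometasone with carbachol; 18 h) and short lines are group means. No gene shown has overlapping groups: SAA1 to PER1 are higher and JUN to NPPB lower with mometasone.

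Promoters of 4 genes are shown, picked among the named genes whose windows hold letters known from the factors that glucocorticoids act through. They were read from RefSeq on GRCh38.p14, run from 250 bases before to 50 bases after a start site, and are written 5′ to 3′ in the direction of transcription. Capitals mark TGACTCA on either strand (its reverse complement is TGAGTCA), the sequence AP-1 binds best, and ACANNNTGT, the inner letters of the palindrome bound by the glucocorticoid receptor, which reads the same on both strands. The windows are chrX:107775939-107776238 (minus strand) for TSC22D3, chr7:130292911-130293210 (plus) for CPA4, chr1:94541710-94542009 (minus) for F3 and chr19:43186487-43186786 (minus) for PSG5.
TSC22D3: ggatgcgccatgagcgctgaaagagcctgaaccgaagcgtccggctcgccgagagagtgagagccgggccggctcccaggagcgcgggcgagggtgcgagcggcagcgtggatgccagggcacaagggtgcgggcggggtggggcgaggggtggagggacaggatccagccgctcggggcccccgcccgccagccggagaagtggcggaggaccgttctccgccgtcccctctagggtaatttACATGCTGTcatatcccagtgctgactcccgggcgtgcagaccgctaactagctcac
CPA4: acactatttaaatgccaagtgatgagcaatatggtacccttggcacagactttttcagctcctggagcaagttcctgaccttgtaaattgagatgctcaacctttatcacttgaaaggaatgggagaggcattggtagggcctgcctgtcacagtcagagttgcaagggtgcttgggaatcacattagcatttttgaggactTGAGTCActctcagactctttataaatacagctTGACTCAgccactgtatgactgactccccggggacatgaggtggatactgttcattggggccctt
F3: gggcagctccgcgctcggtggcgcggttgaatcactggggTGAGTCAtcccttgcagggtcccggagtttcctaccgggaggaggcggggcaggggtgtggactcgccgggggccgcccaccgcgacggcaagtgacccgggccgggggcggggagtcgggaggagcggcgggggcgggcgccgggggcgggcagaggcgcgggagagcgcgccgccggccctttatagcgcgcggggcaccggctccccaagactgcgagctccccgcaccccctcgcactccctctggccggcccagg
PSG5: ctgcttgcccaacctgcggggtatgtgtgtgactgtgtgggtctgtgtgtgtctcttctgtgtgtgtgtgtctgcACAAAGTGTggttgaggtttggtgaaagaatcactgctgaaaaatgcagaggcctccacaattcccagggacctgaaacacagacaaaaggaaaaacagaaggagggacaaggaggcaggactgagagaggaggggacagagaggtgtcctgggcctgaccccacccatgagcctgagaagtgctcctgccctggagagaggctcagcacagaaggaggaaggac
CPA4 held the AP-1 letters at 2 places, which begin 48 and 15 bases before the start, and F3 held them once, 210 bases before it. TSC22D3 and PSG5 held ACANNNTGT once each, beginning 7 and 175 bases before the start. Other named genes with TGACTCA were MT2A, FOSL2, BCL6 and ACSL1, which rose, LRIG1 and FGF1, which fell, and IL11, which was not called. ACANNNTGT was also held by IRS2, which rose, and by CPA3, EVA1A, RASGRP3, NEDD4L, SERPINE2 and PSG4, which fell. TGACTCA was present in 69 promoter windows (6.48%) of genes that fell, in 30 (3.62%) of genes that rose and in 398 (3.08%) of tested genes that were not called, where a gene can have several overlapping windows. Over all 35116 windows of the RefSeq table the share was 4.95%. ACANNNTGT was present in 34 windows (4.1%) of genes that rose, in 34 (3.19%) of genes that fell, in 3.1% of those not called and in 5.37% of all windows. Of the 139 named genes, 92 had a window. These matches describe the letters in these windows only, and binding was not measured.

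Known glucocorticoid receptor targets rose in most cases. Of 22 tested, 19 rose and none fell, with a median change of 1.62 beside 0.05 over all tested genes, and 18 rose without replicate 5. Some of these, such as PDK4 and ZBTB16, passed the filter only through the mometasone libraries. FKBP5 (chr6:35573585-35728583), a co-chaperone that dampens the receptor, was at 153, 159, 146 and 112 with mometasone and at 22.8, 21.7, 18.9, 22.4 and 16.4 without (log2 change 2.74 ± 0.17). PER1, CEBPD, KLF9, KLF15, DUSP1, CDKN1C, DDIT4 and NFKBIA were among the other rises. DDIT4, an inhibitor of mTOR signalling, rose from 49.6 ± 12.5 to 152 ± 19.2, and CRISPLD2, a secreted protein, from 0.774 ± 0.249 to 2.52 ± 0.500. The 3 members not called were SGK1, a kinase, at 26.4 ± 6.80 against 15.02 ± 4.28, RGS2, a brake on Gq signalling, at 11.96 ± 1.58 against 8.44 ± 2.23, and TNFAIP3, an inhibitor of NF-kB, at 4.39 ± 2.09 against 4.404 ± 3.18. With the replicate block SGK1 and RGS2 were called (adjusted p = 0.00035 and 0.013, limma).

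The receptor gene itself, NR3C1, was at 26.8, 35.3, 29.9 and 14.6 with mometasone and at 38.6, 53.6, 66.1, 48.0 and 26.1 without. The groups overlapped, and the log2 change of -0.78 ± 0.31 missed the threshold (adjusted p = 0.088). With the block it was called (adjusted p = 1.4e-07, limma), each pair being lower with mometasone. Of 17 tested genes of the receptor and its chaperones, 3 rose and 4 fell, or 3 and 8 with the block, and 2 and 2 without replicate 5. HSP90AA1, the inducible HSP90, fell from 726 ± 48.1 to 404 ± 18.8, and its partners FKBP4, STIP1 and DNAJA1 fell by less (-0.32, -0.40 and -0.54). ABCB1, an efflux pump that carries steroids, changed by 1.07 ± 0.25 although its groups overlapped, and H6PD, which supplies NADPH for steroid reduction, changed by 0.37.

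Transcription factors were called in both directions, also within families. Among the C/EBP and KLF factors 5 of 15 tested rose (CEBPB, CEBPD, KLF9, KLF15 and ZBTB16) and KLF2 fell. CEBPB, a factor of acute phase and differentiation genes, was at 89.1, 63.9, 78.5 and 108 with mometasone against 16.7, 19.4, 11.4, 16.1 and 19.7 (log2 change 2.28 ± 0.25). KLF15, a metabolic regulator, rose from 4.83 ± 0.772 to 26.5 ± 2.37, and CEBPD from 25.7 ± 5.04 to 93.7 ± 23.9. Without replicate 2, 5 rose and none fell.

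In the AP-1 family the subunits moved in different directions. JUN (chr1:58780788-58784327) was at 18.6, 17.5, 18.4 and 18.6 with mometasone and at 81.5, 94.8, 86.5, 101.5 and 87.9 without, a change of -2.24 ± 0.25 with almost no spread in the mometasone group. FOSL1 was at 11.9, 6.47, 9.97 and 11.5 against 55.9, 67.1, 39.9, 60.9 and 58.0 (log2 change -2.40 ± 0.21). FOSL2 changed by 0.94 ± 0.28, with overlapping groups. Of the 17 tested immediate early genes 2 rose (FOSL2 and MCL1) and 2 fell (JUN and FOSL1). Neither rise was called without replicate 2 or without replicate 4, nor MCL1 without replicate 1 or 3, and 5 genes fell with the block. Among 17 phosphatases and feedback inhibitors of MAP kinase signalling, DUSP1 and ERRFI1 rose and 4 fell, or 3 and 8 with the block. DUSP1, which switches off p38 and JNK, was at 205, 189, 185 and 158 against 60.5, 71.7, 56.5, 80.2 and 51.8. IER3, a stress response gene, fell from 40.7 ± 2.36 to 11.6 ± 1.88 and DUSP8 from 10.1 ± 2.81 to 3.36 ± 1.01, while ERRFI1, a brake on EGF receptor signalling, changed by 1.41 ± 0.32.

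Clock genes were changed in both directions, 4 of 18 tested higher and 5 lower, or 4 and 3 without replicate 2. PER1, a repressor arm gene with receptor sites, was at 106, 95.4, 109 and 95.1 against 24.6, 20.7, 23.7, 25.6 and 18.9. NPAS2, a partner of BMAL1, was at 52.8, 48.3, 46.6 and 32.3 against 8.56, 12.3, 10.7, 9.94 and 4.86, and ARNTL, which encodes BMAL1, rose from 4.96 ± 1.93 to 11.1 ± 2.29. NFIL3 rose by 1.09. The lower members were BHLHE40, at 6.34, 4.67, 5.6 and 2.20 against 17.8, 35.2, 43.6, 39.4 and 12.4, PER3 (-1.21), DBP (-0.99), NR1D1 (-0.76) and CRY1 (-0.76). NR1D1 encodes REV-ERB alpha, which represses ARNTL, and DBP is a clock output factor.

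Few cytokine genes were high enough to test. Of 8 tested, 3 fell and none rose, and 2 fell without replicate 5 or without replicate 2. CCL2, a monocyte chemoattractant, was at 14.8, 10.6, 16.4 and 13.8 with mometasone and at 67.2, 66.4, 42.4, 71.3 and 70.3 without (log2 change -2.11 ± 0.21). IL6 was at 0.30, 0.46, 0.29 and 0 against 4.02, 1.94, 2.45, 2.14 and 3.65, low levels that did not overlap, and it passed the filter only through the carbachol libraries. LIF changed by -0.68 ± 0.24 and lost its call when any replicate was left out, and IL11 was at 8.63 ± 0.518 against 14.5 ± 3.84 without a call (with the block, adjusted p = 0.0049, limma). Of 16 NF-kB genes 3 rose: NFKBIA, the inhibitor IkB alpha, at 63.3, 66.9, 71.6 and 61.2 against 22.9, 26.1, 17.3, 27.1 and 23.8, and BIRC3 and BIRC2, ubiquitin ligases of the pathway, with log2 changes of 2.54 ± 0.28 and 0.55 ± 0.17. BIRC2 lost its call without replicate 2 or 4. No member fell, or 2 with the block. Interferon-stimulated genes gave 1 rise (STAT2, 0.67) and 1 fall (OAS1, -0.92) among 20, shares near those of all genes, and 8 falls with the block. OAS1 was not called without replicate 1, 2, 4 or 5, and 2 genes of the list fell without replicate 5.

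Of the tested prostaglandin and acute phase genes, larger shares rose than of all tested genes. PLA2G4A, HPGD, PTGDS and SAA2 were mostly below 1 with carbachol alone and passed the filter through the mometasone libraries. These shares therefore partly reflect the filter. Of 9 tested genes of prostaglandin synthesis and receptors 4 rose and ANXA1, annexin A1, fell (-0.70), while 2 fell with the block. PLA2G4A, the phospholipase that frees arachidonic acid, was at 12.01, 14.97, 12.7 and 9.51 against 0.98, 1.07, 0.62, 0.81 and 0.74. HPGD, which inactivates prostaglandins, was at 3.89, 3.39, 4.03 and 3.01 against 0.50, 0.32, 0.20, 0.26 and 0.55, and PTGDS, a prostaglandin D synthase, rose from 0.190 ± 0.196 to 2.49 ± 1.16. PTGER4, a receptor for prostaglandin E, changed by 0.85 ± 0.26 with overlapping groups and lost its call without replicate 1 or 4. Of 9 tested acute phase and defence genes 4 rose, among them SAA1, SAA2 and C1S (0.84), which encodes a complement protease. Without replicate 5, and likewise without replicate 2, 3 rose, and C1S was not called without replicate 2, 3, 4 or 5. Metallothioneins are small metal-binding proteins with near-identical copies, and 3 of the 5 tested genes of that list rose. The 2 not called were MT1F (1.11, adjusted p = 0.097, limma), which was called with the block, and MTF1 (0.10), which is not a metallothionein. MT2A was at 2137, 1227, 2162 and 3060.3 against 688, 852, 747, 809 and 1325, with replicate 5 of carbachol inside the range of the mometasone libraries, and MT1X was at 135, 74.0, 132 and 152 against 20.8, 29.1, 30.8, 18.6 and 40.3.

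The group with the largest share of falls was that of pregnancy-specific glycoproteins, immunoglobulin-type secreted proteins clustered on chromosome 19. All 10 that were tested fell, the only tested CEACAM gene (CEACAM19) was not called, and the median of the 11 was -1.73. The counts were the same without replicate 2, without replicate 5 and with the block. PSG5 (chr19:43166256-43186536) was at 34.6, 29.3, 35.6 and 27.8 with mometasone and at 208, 221, 243, 211 and 218 without, a change of -2.76 ± 0.15 (adjusted p = 5.1e-33, limma). PSG1 was at 3.17, 3.05, 3.37 and 4.14 against 30.6, 22.7, 29.8, 23.3 and 33.3 and PSG9 at 2.71, 2.09, 1.59 and 2.29 against 18.6, 18.7, 15.4, 14.4 and 18.6. The spread was small in both groups, with the lowest carbachol library of each well above the highest mometasone library. PSG4 changed by -2.26 ± 0.22. These genes are close copies, so reads may have been split between them, and their falls cannot be counted as independent.

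Extracellular matrix genes and their proteases were lowered in many members. Of 25 matrix genes 12 fell and 3 rose, with a median of -0.38, but 7 fell and 1 rose without replicate 2. SPARC, a matricellular glycoprotein, was at 483, 524, 448 and 413 against 1201, 1182, 1220.2, 1029.9 and 989.6, LOXL2, a collagen crosslinking oxidase, changed by -1.51 ± 0.25 and COL1A1 by -0.80. COL8A1 (1.27) and FN1 (0.76) were higher, and TGFBI, at 19.96, 13.2, 23.5 and 19.3 against 30.6, 37.1, 95.4, 46.2 and 40.3, was lower but lost its call without replicate 3, the highest carbachol library, and without replicate 2. Of 16 matrix protease and plasminogen genes 9 fell, with a median of -0.83. PLAU, which encodes urokinase, fell from 36.7 ± 2.77 to 12.96 ± 2.39, SERPINE2 from 41.6 ± 4.92 to 12.99 ± 2.07 and ADAMTS1 from 61.5 ± 11.9 to 21.8 ± 5.10. PLAT, tissue plasminogen activator, changed by -1.18 and was not called without replicate 3.

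Genes of growth factor signalling were lower more often than higher. In the TGF-beta and BMP list 9 of 23 fell and 3 rose, and 5 fell without replicate 2. BMP4 was at 27.2, 26.6, 26.7 and 26.0 against 82.8, 90.1, 91.7, 89.7 and 94.2, and the secreted BMP antagonists GREM1 and NOG fell with it, GREM1 with a log2 change of -2.25 ± 0.47. BAMBI, a decoy receptor, changed by -1.20, TGFBR3, a co-receptor, by 1.73 ± 0.29 and TGFBR2 by 1.64. Of 19 YAP and SRF targets 6 fell and ANKRD1 rose (42.6 ± 7.10 against 15.8 ± 2.68), or 11 and 3 with the block. NPPB and F3 are members, and CCN1, a matricellular YAP target, was at 216, 188, 205 and 178 against 450.4, 514, 446, 490.2 and 416. Of 10 EGF receptor genes 4 fell, among them LRIG1 (-0.91), HBEGF (-0.82) and ERBB3 (-0.76, not called without replicate 4), and 1 rose, or 2 with the block.

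Of 24 growth factor and insulin pathway genes 7 fell and 4 rose, or 11 and 8 with the block, and without replicate 2 the 4 rises were 2. FOXO1, a factor restrained by insulin, was at 21.8, 24.99, 21.0 and 14.6 against 4.07, 3.84, 4.80, 4.11 and 2.57, and IRS2, an insulin receptor substrate, rose by 1.86 ± 0.32. FGF1 fell from 15.8 ± 4.62 to 5.99 ± 1.65. FGF5, at 1.78 ± 0.883 against 6.02 ± 4.01, was not called (adjusted p = 0.053, limma). It was called in 6 of 14 alternative fits, among them the block (adjusted p = 3.1e-09, limma), median-ratio scaling, quantile normalisation and the fit without replicate 5. Among 30 cell cycle genes 1 rose and 2 fell, shares near those of all genes. Under the block 2 rose and 5 fell, beside 1628 and 1745 of all 13009 tested genes. CDKN1C, the inhibitor p57, was at 17.9, 14.9, 15.9 and 23.2 against 2.88, 2.97, 2.32, 4.55 and 4.27. CCND1, cyclin D1, was at 5.08, 5.47, 6.12 and 4.81 against 25.8, 23.8, 16.2, 21.1 and 18.3, and CDKN2B, the inhibitor p15, changed by -1.33. Apoptosis regulators rose in 9 of 23 and none fell, but 5 rose without replicate 2, 5 fell with the block and 2 fell without replicate 5. The rises joined genes known to block cell death (CFLAR, 1.30 ± 0.10, BCL2L1, BIRC3 and MCL1) with genes known to promote it (FAS, 1.23 ± 0.24, BMF and BCL2L11), and BCL6, a repressor (1.16).

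Falls outnumbered rises among genes of glucose metabolism. Of 23 glycolysis and glucose uptake genes 11 fell and 2 rose, with a median of -0.58, and 18 fell with the block. The falls ran along the pathway, from the transporters SLC2A1 and SLC2A3 through the hexokinases HK1 and HK2 to PFKP, ALDOA, TPI1, PGAM1, ENO1, PKM and LDHA. HK2 was at 5.43, 10.6, 6.39 and 3.37 against 16.3, 26.9, 52.4, 33.2 and 10.9, groups that did not meet although carbachol ranged widely. PKM fell from 958 ± 85.7 to 477 ± 19.0 and LDHA, lactate dehydrogenase A, from 1097 ± 459.7 to 506 ± 139. PDK4, a kinase that turns off pyruvate dehydrogenase, was higher at 2.60, 2.04, 2.67 and 3.60 against 0.24, 0.14, 0.12, 0.32 and 0.22. SLC2A3 changed by -1.59 ± 0.35 and SLC2A1 by -1.31 ± 0.32, the latter with overlapping groups.

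In the list of cholesterol and fatty acid synthesis 5 of 23 fell and none rose, with a median of -0.52, while 17 fell with the block, 2 without replicate 2 and 3 without replicate 5. INSIG1 and FDPS changed by -1.06 ± 0.34 and -0.87 ± 0.27, and both lost their calls without replicate 2 or without replicate 4, FDPS also without replicate 5 and INSIG1 also without replicate 3. HMGCS1 was at 644, 556, 616 and 218 against 924, 1403, 1258, 1404 and 556, where replicate 5 of both groups was the lowest. The groups overlapped, and the gene was not called (adjusted p = 0.13). With the block it was (adjusted p = 2e-12, limma). SCD likewise had overlapping groups, with adjusted p = 0.061, and 1.5e-15 under the block. Of 20 fatty acid oxidation and lipid storage genes 3 rose and 2 fell, or 5 and 3 with the block. ACSL1, an acyl-CoA synthetase, was at 70.7, 61.8, 70.2 and 61.1 against 13.5, 14.04, 14.3, 13.7 and 11.3, with PLIN3 at -0.57 and LPIN1 at 1.46 ± 0.39, the last not called without replicate 3.

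Of 20 amino acid genes 5 fell and 1 rose, or 6 and 3 with the block, and 2 rose without replicate 5. GLUL, glutamine synthetase, rose from 79.8 ± 16.7 to 217 ± 45.8, and SLC7A5, the large neutral amino acid transporter, was at 44.3, 43.2, 31.3 and 45.4 against 126.3, 104, 96.9, 90.3 and 121. Of 19 oxidative stress genes 4 rose and 1 fell, with 7 falls under the block, 3 without replicate 5, and 2 rises and no fall without replicate 2. GPX3, a secreted glutathione peroxidase, was at 22.0, 18.5, 21.9 and 47.6 against 6.31, 5.28, 3.90, 3.20 and 6.55, replicate 5 with mometasone standing above the other 3. GCLC, which limits glutathione synthesis, changed by 0.78 ± 0.20 and lost its call without replicate 2. NQO1 was at 9.97 ± 3.60 against 25.3 ± 11.1, with overlapping groups and no call without replicate 1, 2 or 4. The 13 mitochondrially encoded genes had a median change of 0.06.

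The gene of the receptor for carbachol was called lower, at low values and not in every fit. CHRM3, the muscarinic M3 receptor and the only muscarinic receptor gene that passed the filter, was at 0.67, 0.92, 0.62 and 0.67 with mometasone and at 2.25, 1.30, 1.68, 1.06 and 0.98 without. These low values did not overlap, but its log2 change of -0.49 ± 0.16 (adjusted p = 0.025, limma) lost its call without replicate 1, 2, 3 or 4. The call was also lost with only the 18 h groups fitted, and with only the compared groups fitted, with or without the block. Of 17 genes of Gq signalling 3 fell and PLCB4, a phospholipase C, rose (1.31 ± 0.35, overlapping groups, not called without replicate 2), or 5 and 3 with the block. RASGRP3, an exchange factor for Ras proteins that responds to diacylglycerol, was at 9.38, 10.6, 7.89 and 4.99 against 17.1, 19.1, 25.9, 20.8 and 12.6. Of 22 genes of cyclic AMP signalling 2 fell and none rose, beside 6.28% and 5.14% of all tested genes. With the block 4 fell and 3 rose, beside 1745 and 1628 of all 13009. PDE10A was among the 2 falls (-0.95, not called without replicate 2 or without replicate 4). PDE4B and PDE3A, at -0.67 and 0.60, were not called, but were with the block (adjusted p = 0.0005 and 0.026, limma). Without replicate 2, 1 gene of the list fell.

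Genes of epithelial transport and junctions were called in both directions or lower. Of 13 tested ion and water transport genes 2 rose, among them SCNN1A, and NEDD4L and ATP1B1 fell, or 3 and 4 with the block and 1 and 1 without replicate 2. NEDD4L, a ubiquitin ligase that removes the sodium channel from the membrane, was at 21.3, 20.5, 22.8 and 21.0 against 48.3, 47.0, 44.5, 51.8 and 56.5, a change of -1.17 ± 0.12. SLC12A2, a chloride cotransporter, changed by -0.57 without a call, but was called with the block (adjusted p = 3.9e-05, limma). Of 18 junction genes 3 fell, CDH1, E-cadherin (1.52 ± 0.746 against 5.39 ± 1.65), CLDN1, claudin-1 (6.10 ± 0.602 against 11.6 ± 1.35), and PKP3, while none rose. With the block 5 fell and 2 rose, and 2 fell without replicate 5 and 2 without replicate 2. PKP2 and CDH3 were not called (0.48 and -0.50), but PKP2 was called higher with the block (adjusted p = 0.006, limma). The mucin genes MUC1 (0.55) and MUC20 (0.45) were not called either. The summed level of the 9 epithelial markers was 294 to 417 with mometasone and 496 to 816 without, mainly through KRT8 (-0.83) and KRT18 (-0.83). KRT7 went the other way, at 6.51 to 18.1 with mometasone and 2.84 to 8.91 without, and was called higher with the block only (adjusted p = 0.43 without and 3.2e-05 with it, limma). The sum of the 6 basal markers was 114 to 177 against 469 to 719, mainly through KRT17 (-2.08). These sums moved with the groups, and their part in the falls of other epithelial genes was not tested. KRT5, another basal keratin, rose (2.37 ± 0.472 against 0.252 ± 0.237). The mesenchymal sum was 2658 to 3408 with mometasone and 2702 to 3170 without.

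**Figure D3:**
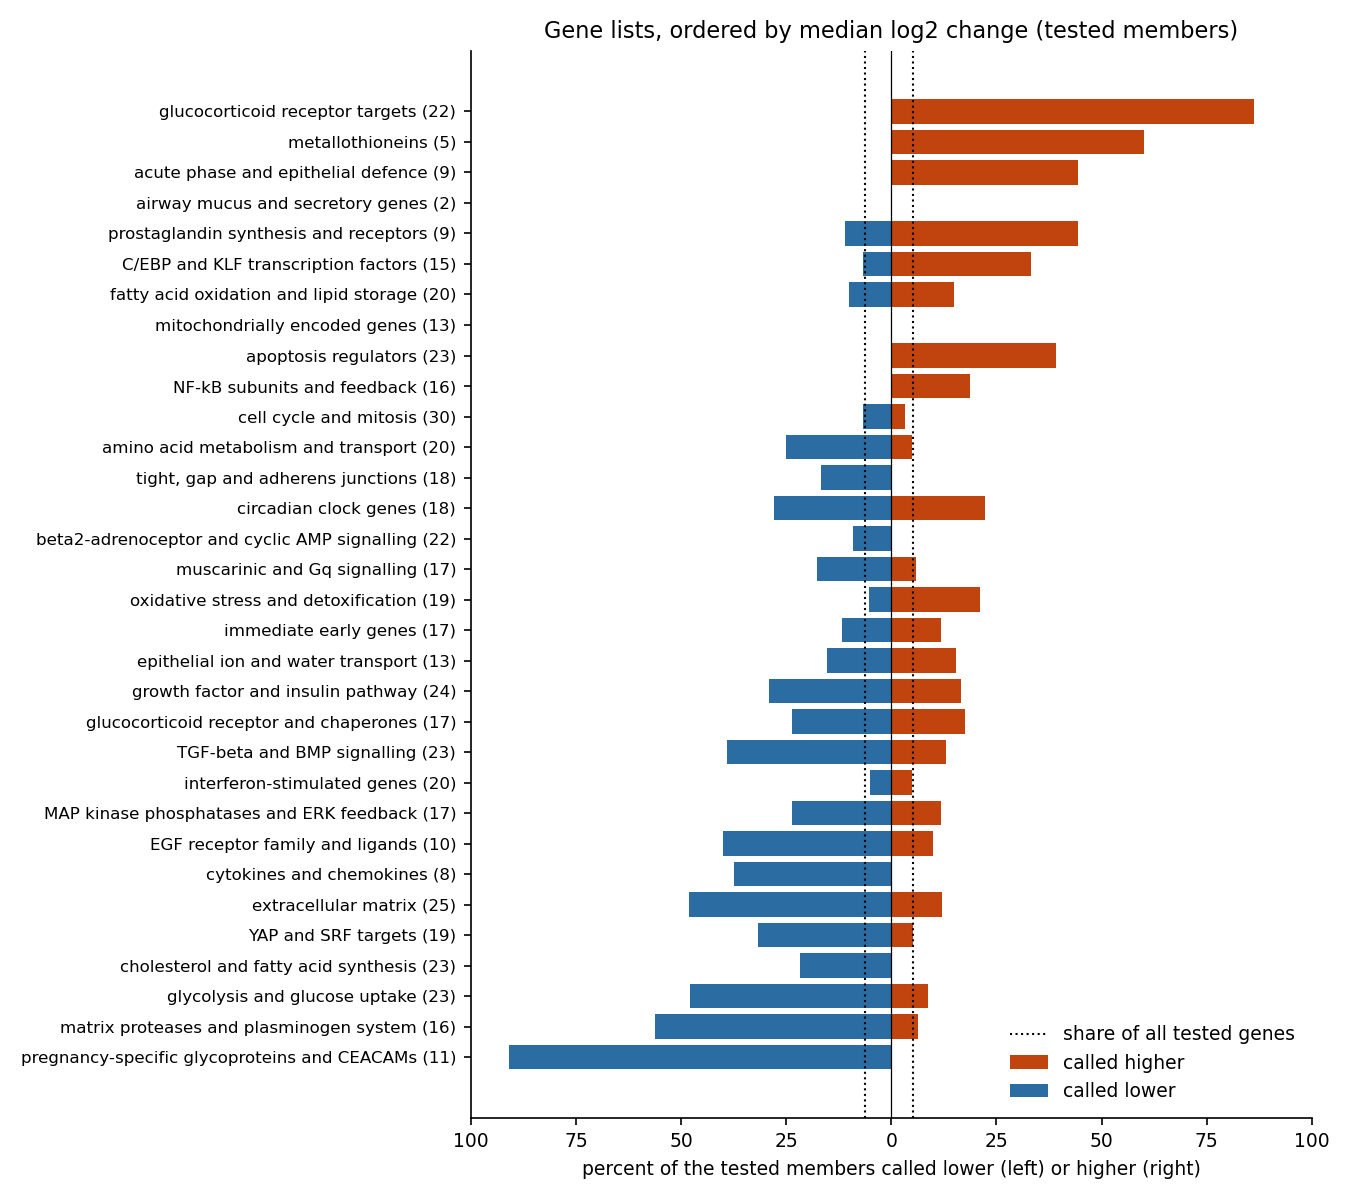
Share of the tested members of each gene list that was called higher (red, to the right) or lower (blue, to the left) when mometasone was added to carbachol at 18 h, with the number tested in parentheses and the lists ordered by median log2 change. Dotted lines mark the shares over all tested genes, 5.14% higher and 6.28% lower; glucocorticoid receptor targets reach 19 of 22 on the right and the pregnancy-specific glycoprotein list 10 of 11 on the left.

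To see which changes were already present earlier, the same contrast was taken at 1, 2 and 6 h, with separate libraries. Only genes that passed the filter at 18 h were tested, so genes low at 18 h, such as NR4A3 and FOSB, are missing from the counts. There were 107 calls at 1 h (0.823% of the tested genes, 0.607% higher and 0.215% lower), 315 at 2 h (2.42%, 1.72% higher and 0.7% lower) and 1427 at 6 h (11%, 5.97% higher and 5% lower). Of the 669 genes higher at 18 h, 383 (57.2%) were already called higher at 6 h, 139 (20.8%) at 2 h and 48 (7.17%) at 1 h. Of the 817 lower genes, 403 (49.3%) were called lower at 6 h, 68 (8.32%) at 2 h and 15 (1.84%) at 1 h. TSC22D3, PER1 and JUN had large changes at 1 h (3.66, 2.07 and -1.10 on the log2 scale), whereas ZBTB16, ADH1B, an alcohol dehydrogenase, PSG5 and CPA4 had values near 0 (-0.02, -0.08, 0.07 and -0.10).

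The change at 18 h differed from that at 6 h for 133 genes (1.02% of those tested), 28 (0.215%) with a higher and 105 (0.807%) with a lower value at 18 h. With the block it was 779, and without replicate 2 and without replicate 4 it was 70 and 77. Among the 133, 45 were lower at both times and further lowered at 18 h, 19 were higher at both and further raised, 23 were higher at both but less so at 18 h, and 37 were above 0 at 6 h and below 0 at 18 h. Another 7 were below 0 at 6 h and above it at 18 h, and 2 were less lowered at 18 h. Of the 133, 47 were called at both times and 6 of these in opposite directions. Those 6 were CSPG4, GPC1, NIBAN2, SOCS2, TFE3 and TRIM29, each higher at 6 h and lower at 18 h.

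The late falls were led by CPA4, whose change went from -1.26 at 6 h to -3.78 at 18 h (difference -2.52 ± 0.33, adjusted p = 9e-09, limma). In the carbachol group CPA4 was at 139 ± 42.4 at 6 h and 98.9 ± 24.6 at 18 h, and with mometasone at 55.7 ± 5.97 and 6.14 ± 0.993. PSG5 (-0.77 to -2.76), PSG1 (-0.57 to -2.70), CPA3 (-0.94 to -2.78) and LY6K, a surface protein of the Ly6 family (-0.29 to -2.21), followed the same course, and 5 of the 11 genes in the pregnancy-specific glycoprotein list differed between the times. SERPINE2 and KRT17 did so too, by -1.22 ± 0.22 and -1.58 ± 0.35. PLAT was above its control at 6 h, 57.6 ± 11.9 against 32.04 ± 10.3, and below it at 18 h, 10.9 ± 1.83 against 26.6 ± 7.59 (difference -2.04 ± 0.47, adjusted p = 0.0054, limma). In the glycolysis list PKM and PFKP differed, by -0.80 ± 0.18 and -1.36 ± 0.24, with PFKP at 0.12 at 6 h.

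Rises took both courses. TSPAN8 grew from 1.46 at 6 h to 3.33 at 18 h (difference 1.87 ± 0.24, adjusted p = 7.9e-09, limma). ADH1B, ZBTB16, HPGD, GPX3 and SAA2 also grew, by 1.19, 1.17, 1.30, 1.51 and 1.27. ARNTL went from -0.51 at 6 h to 1.07 at 18 h (difference 1.58 ± 0.36). Metallothionein changes shrank: MT1X went from 4.25 to 2.10, from 775 ± 109.6 against 41.1 ± 14.3 at 6 h to 123 ± 34.0 against 27.9 ± 8.68 at 18 h. MT2A and PER1 gave differences of -1.33 and -0.94, both called, while TSC22D3, FKBP5 and CEBPB gave differences of -0.37, -0.60 and -0.89 that were not. For SAA1 and NPPB the differences of 1.60 and -1.26 were not called (adjusted p = 0.23 and 0.07, limma).

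**Figure D4:**
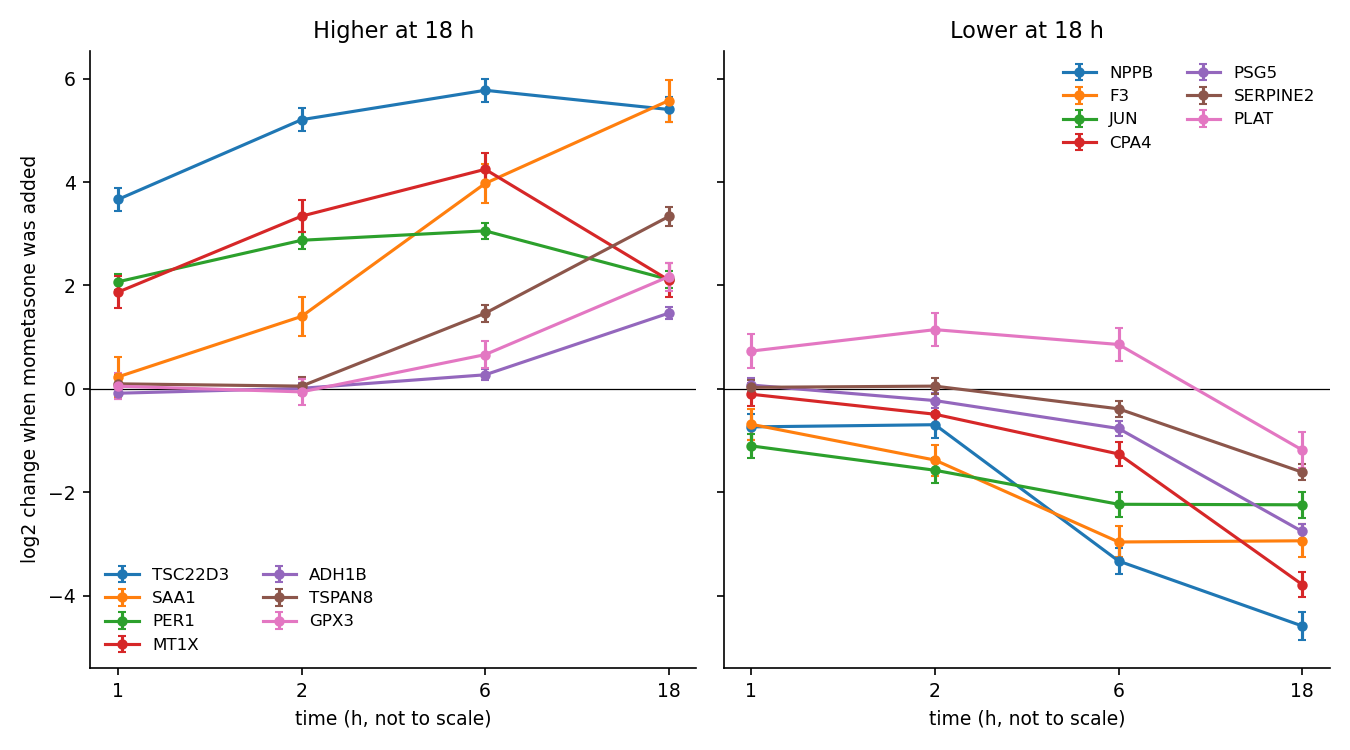
Log2 change when mometasone was added to carbachol at 1, 2, 6 and 18 h for 7 genes that were higher (left) and 7 that were lower (right) at 18 h; bars are standard errors from the model and the time axis is not to scale. TSC22D3 and PER1 rise early and MT1X peaks at 6 h, whereas CPA4, PSG5 and SERPINE2 fall mainly between 6 and 18 h and PLAT crosses from above 0 to below 0.

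Whether carbachol altered the response to mometasone was tested as a difference of differences with mometasone against vehicle at 18 h, a contrast that shares no library with the first. No gene was called in limma, with the block or under the other alternatives run, and 74 genes had an unadjusted p under 0.05 (208 with the block). Mometasone alone changed 1301 genes (10% of those tested, 4.48% higher and 5.52% lower) and 1033 were called in both in the same direction, 69.5% of the 1486 and 79.4% of the 1301. None was called in opposite directions, and 1480 of the 1486 had the same sign. For the 27 genes with the largest rises and falls the difference ran from -0.53 to 0.65, with standard errors of 0.22 to 0.61, and for 26 of them the 95% interval included 0. TSC22D3 changed by 5.42 without carbachol and 5.40 with it (95% interval of the difference -0.72 to 0.69). NPPB changed by -4.76 and -4.59 (interval -0.63 to 0.97), and SAA1 by 4.93 and 5.58 (interval -0.57 to 1.87). TSPAN8, the exception, changed by 2.69 and 3.33, with an interval of 0.11 to 1.17 not adjusted for the number of genes. These intervals leave room for differences of the size they span, so like responses were not shown.

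Carbachol by itself gave no calls in limma at this time. Against vehicle no gene was called (98 at an unadjusted p under 0.05, 0 called and 479 unadjusted with the block), and against mometasone alone no gene was called when carbachol was added (70 unadjusted, and 246 with the block). With no filter on low values 9 and 14 genes were called in these comparisons. CHRM3 was at 1.20 ± 0.169 in vehicle and 1.13 ± 0.263 with mometasone alone, so its change there was -0.05, and the difference of -0.44 from the change with carbachol had an interval of -0.92 to 0.03.

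**Figure D5:**
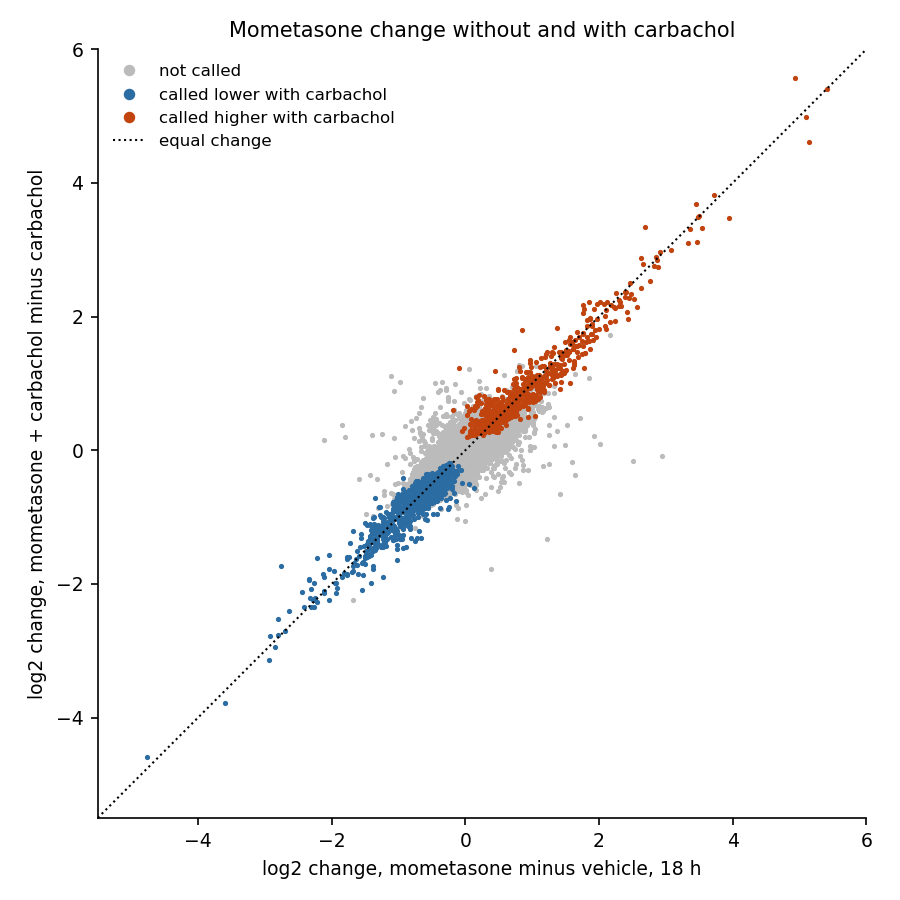
Log2 change of each tested gene when mometasone was added to carbachol (vertical) against its change when mometasone was given alone (horizontal), both at 18 h; the dotted line marks equal changes. Genes called higher (red) and lower (blue) with carbachol lie along the line, and 1480 of these 1486 have the same sign on both axes.

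The comparison with indacaterol separated a few genes. Mometasone added to indacaterol changed 1502 genes at 18 h (11.5%, 5.57% higher and 5.97% lower), and 1109 were called in both in the same direction, 74.6% of the 1486 and 73.8% of the 1502. The response differed between the agonists for 4 genes (0.0307% of those tested, 0.00769% with a higher and 0.0231% with a lower value on carbachol), or 24 with the block, and for 0 without replicate 2, without replicate 5, or when only the 18 h groups or only the compared groups were fitted. NPPB fell from 27.8 ± 10.23 to 2.77 ± 0.698 on indacaterol and from 67.4 ± 17.7 to 1.84 ± 0.788 on carbachol, a difference of -1.71 ± 0.38 (adjusted p = 0.047, limma). DEPP1, a FOXO target, rose to 34.8 ± 7.26 with indacaterol and to 15.1 ± 2.36 with carbachol, from 2.27 ± 0.748 and 2.48 ± 0.630 (difference -1.25 ± 0.27). ADH1B rose to 4.92 ± 1.83 and 2.09 ± 0.859 (difference -0.91 ± 0.16). SVEP1, a large extracellular protein, went the other way, from 2.56 ± 0.391 to 6.63 ± 1.20 with indacaterol and from 1.20 ± 0.285 to 8.63 ± 1.59 with carbachol (difference 1.03 ± 0.22). Before mometasone the mean of NPPB was higher, and that of SVEP1 lower, on carbachol than on indacaterol, a difference that was not tested, while the means of DEPP1 and ADH1B were close. Without replicate 3, and likewise without replicate 4, 1 gene was called.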

How the data were processed

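RNA was extracted from the treated cells and libraries were made with Illumina TruSeq, per the labels' protocols. Tools named in the submitters' processing notes are STAR 2.4.2a and bcl2fastq 2.17.1.14, with the build GRCh38. How values were quantified and scaled, and whether strand was used, has not been given in the sources used here. The authors deposited 1 normalised signal value per gene and library for 29273 genes. Its name says TPM, but column sums ran from 847289 to 1498421, so the values were treated as a signal and no count model was used. Of the columns of per-sample values 10 were not used: 6 headed 8 h, a time no label gives, and 4 with letters in place of values. This left 150 of 160 samples.

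Values were tested as log2(value + 1) in limma 3.58.1 (R 4.3.3), with moderated variances (trend), 1 coefficient per group for all 32 groups, residual degrees of freedom of 118 and Benjamini-Hochberg adjustment over 13009 genes. Another 16264 genes were below the filter. The code was tested on simulated data. Same-numbered replicates correlated at 0.38, 0.62, 0.34 and 0.87 in their deviations, above the limit of 0.1 in all 4 pairs. Unlike-numbered pairs among replicates 2 to 4 were above that limit too, at 0.18 to 0.36. Replicate 4 with mometasone correlated slightly more with carbachol replicate 3 (0.36) than with carbachol replicate 4 (0.34). The check therefore sets replicate 5 apart but only partly tells replicates 2 to 4 from each other. The pairing rests on the labels' replicate numbers, and blocked values are given where they change a call.

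Members and lists were chosen with earlier results of these data known. Named genes are the 15 largest rises and 12 largest falls called with the same direction in all 4 pairs and a mean of at least 3, up to 4 members per gene list by size of change, receptor genes, and up to 8 genes per difference of differences; other names (further list members, and the 6 genes called in opposite directions at 6 and 18 h) were chosen after their values were seen. Results of some named genes are not reported here. Coordinates are from GENCODE 29 on GRCh38, with 27928 symbols matched.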

Additional observations from a re-analysis of the deposited data

Results flagged for a closer look

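Within the 270 groups of 4 or 5 libraries that were looked at, 20 held a library far from the others of its group by Dixon's criterion, and chance gives about 1 in 20 such groups. Replicate 5 was the distant library in 10 of them, replicate 3 in 7, replicate 4 in 2 and replicate 1 in 1. Among the carbachol libraries, replicate 5 was at 11.3 for ACSL1 (others 13.5 to 14.3), 11.7 for GCLC (17.8 to 19.7), 1325 for MT2A (688 to 852) and 0.21 for RGCC (0.95 to 1.17). Replicate 3 of carbachol was at 42.4 for CCL2 (66.4 to 71.3), 3.52 for LIF (1.98 to 2.30) and 95.4 for TGFBI (30.6 to 46.2). HBEGF was at 2.75 in replicate 4 of carbachol (3.50 to 3.78) and LY6K at 27.0 in replicate 1 (41.5 to 46.2). Among the libraries with mometasone and carbachol, replicate 5 was at 28.8 for AOX1 (74.1 to 81.0), 1.86 for DUSP8 (3.71 to 4.01), 47.6 for GPX3 (18.5 to 22.0), 3.54 for GREM1 (9.62 to 10.7), 21.8 for PKP2 (48.9 to 51.4) and 10.1 for TGFBR3 (23.1 to 24.4). Replicate 3 of that group was at 0.92 for CHRM3 (0.62 to 0.67), 17.5 for JUN (18.4 to 18.6), 50.1 for METTL7A (35.0 to 37.6) and 9.92 for SERPINE2 (13.6 to 14.3). SLC7A5 was at 31.3 in replicate 4 (43.2 to 45.4).

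The change with mometasone differed between 18 h and 6 h, by the test of the difference in limma, for 8 named genes: CPA4 (-2.52), MT1X (-2.14), PSG1 (-2.13), PLAT (-2.04), PSG5 (-1.99), LY6K (-1.92), TSPAN8 (1.87) and CPA3 (-1.84), in log2 units. It differed between carbachol and indacaterol for NPPB (-1.71), DEPP1 (-1.25), SVEP1 (1.03) and ADH1B (-0.91).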

How the results depend on the processing

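Under the replicate block, a term that pairs same-numbered libraries, 1628 genes rose and 1745 fell, the change differed from 6 h for 779 genes and from indacaterol for 24. With only the compared groups fitted 409 rose and 547 fell, 956 in place of 1486, and against indacaterol 0 differed. That fit with the replicate block gave 1806 rises and 1636 falls. With at least a 1.5-fold change 420 rose and 533 fell. Leaving out each replicate in turn gave 412 to 706 rises, 543 to 827 falls, 70 to 111 genes against 6 h, 0 to 4 against indacaterol and 0 to 1 for carbachol added to mometasone. The 4 genes against indacaterol were 1 with a pseudocount of 0.1, 2 with median-ratio scaling, 1 with quantile normalisation, 1 without libraries over 20% mitochondrial, 0 with only the 18 h groups fitted and 14 with no filter on low values. With no filter, 14 genes were called for carbachol added to mometasone and 9 for carbachol against vehicle. Of 113 named genes that were called, 94 were called under all 14 alternatives and 0 reversed. Depth is unknown, so which low genes it limits cannot be stated.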

Other observations

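Beyond the lists above, 2 groups of genes were put together after their values were seen. Wnt antagonists were higher in 3 of the 8 tested of 16 genes, beside 5.14% of all tested genes, with a median change of 0.37. None fell, but with the block 4 rose and 2 fell. Of the 3, NKD1 and FRZB were below 1 in every carbachol library and passed the filter only through the mometasone libraries. The share is therefore not a measure of how the group as a whole responded. DKK1, which blocks the Wnt co-receptors, was at 218, 261, 221 and 177 with mometasone and at 50.4, 39.5, 44.8, 35.0 and 41.6 with carbachol alone (log2 change 2.34 ± 0.18). NKD1, an intracellular inhibitor, was at 7.88, 10.7, 7.79 and 6.95 against 0.07, 0.41, 0.02, 0.10 and 0.36 (2.96 ± 0.19), and FRZB, a secreted decoy, at 7.41, 5.84, 6.49 and 6.62 against 0.54, 0.38, 0.48, 0.50 and 0.54 (2.35 ± 0.12). None of these groups of libraries overlapped. DKK3 and SFRP1, at -0.32 and -0.25, were not called, but were called lower with the block (adjusted p = 0.00033 and 0.0054, limma), and APCDD1 was called higher (adjusted p = 0.036, limma).

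Inflammasome and related genes, not all of which process interleukin precursors, were higher in 3 of the 7 tested of 12 genes, beside 5.14% of all tested genes, with a median of 0.38. With the block 4 were higher, beside 1628 of all 13009. None fell in either fit. CASP1 was at 11.6, 13.2, 12.1 and 10.8 against 3.10, 4.94, 2.55, 4.37 and 3.39 (1.49 ± 0.21), and CARD16, a gene next to CASP1 with a near-identical CARD domain, at 64.0, 68.9, 71.6 and 78.1 against 12.7, 17.6, 12.1, 16.9 and 24.8 (2.05 ± 0.20), so reads may be shared between them. CASP4 changed by 0.42 ± 0.11. These 3 genes lie close together on chromosome 11 (104942866 to 105101431), so their rises cannot be counted as independent. IL18, a CASP1 substrate, PYCARD, the adaptor, NLRP1, a sensor, and GSDMD were not called, at 0.25, -0.27, 0.38 and 0.20. IL18 was called higher with the block (adjusted p = 0.016, limma).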
